A study of Mus musculus with 16 samples.

Results

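A set of 9 genes that T cells switch on when the T cell receptor (TCR) is engaged were followed in mouse Th17 cells: the nuclear receptors Nr4a1 and Nr4a3, the zinc-finger transcription factors Egr1, Egr2 and Egr3, the costimulatory receptors Tnfrsf9 (CD137) and Tnfrsf4 (OX40), and the surface proteins Cd69 and Cd44. They were chosen by name, with earlier results of these data known, and are 9 of the 15571 genes in the deposited table. All 9 matched an identifier, and all 9 were among the 14985 genes that passed the filter on low counts.

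Binding of the TCR opens calcium, MAP kinase and NF-κB pathways. The first genes to answer, among them the NR4A and EGR families and Cd69, need no new protein synthesis, and the costimulatory receptors follow. Nr4a1 is widely used as a reporter of how strongly a T cell is being stimulated through its receptor, and NR4A proteins, EGR2 and EGR3 are known to restrain activated T cells.

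The study asked what pyruvate dehydrogenase (PDH), the mitochondrial enzyme that turns pyruvate into acetyl-CoA, does in Th17 cells, and whether acetate, another source of acetyl-CoA, replaces it. There were 4 groups of 4 libraries each: PDH fl/fl CD4-Cre cells (KO) with acetate, KO cells without it, PDH fl/fl cells (WT) with acetate, and WT cells without it. All cells carry the floxed allele, and CD4-Cre, which is active from a stage of thymic development before CD4 and CD8 T cells separate, is present only in KO cells. The titles spell the gene PHD and the protocols PDH, and the labels give neither strain nor age. Naive CD4 T cells sorted magnetically from spleen and lymph nodes were then stimulated on a plate coated with anti-CD3 (5 µg/mL). The medium contained anti-CD28 (1 µg/mL) and anti-IFNγ (5 µg/mL), and Th17 differentiation was driven over 3 days by TGFβ (2 ng/mL) together with IL-6 (30 ng/mL). Acetate was given as 10 mM sodium acetate. Every group was thus under TCR stimulation, and the groups analysed here include no unstimulated culture, no control for sodium and no Cre-only control. Whether libraries of a group stem from different mice or dishes is not stated, so a p-value here reflects only the spread between libraries.

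Library totals were 24571177 to 33723470 estimated counts. In 4 libraries (KO acetate 2, KO untreated 1, KO untreated 2 and WT untreated 1) a single gene took more than 3% of all counts. The 6 CD4 T cell markers summed to 1911 to 2109 CPM (counts scaled to the TMM-adjusted library total) in KO acetate, 1792 to 1977 in KO untreated, 2105 to 2222 in WT acetate and 2274 to 2341 in WT untreated libraries. The 6 Th17 markers summed to 1579 to 2810, 634 to 909.7, 1227 to 2066 and 683 to 1090.0 CPM in the same order. Markers of other cells were low: both CD8 markers summed to 13.7 to 18.2, 5.13 to 8.36, 13.1 to 17.2 and 9.08 to 11.2 CPM, the 5 B cell markers to at most 5.64 CPM and the 2 of 5 dendritic cell markers that could be tested to at most 5.80 CPM. Of 7 myeloid, 4 NK and 4 erythroid markers, 2, 2 and 0 were abundant enough to test. The 2 myeloid markers summed to at most 3.44 CPM and the 2 NK markers to 6.18 to 10.1 CPM over the libraries. In bulk RNA, fewer cells expressing a gene and less of its RNA per cell cannot be told apart.

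Promoter sequences of 4 of the genes are shown here because they hold short motifs bound by factors that TCR signals are known to act through. They are the 250 bases before an annotated start site, taken from RefSeq on GRCm38.p6, 5′ to 3′ on the gene's own strand. Windows were found for 6 of the 9 genes, and Egr1, Egr3 and Cd69 did not match. Capitals mark TGACG (the core bound by CREB and ATF proteins, CGTCA on the other strand), the CArG box (bound by SRF), TGANTCA (bound by AP-1) and the κB motif, GGGNN followed directly by TTTCC (bound by NF-κB).
Nr4a1, chr15:101266596-101266845, plus strand: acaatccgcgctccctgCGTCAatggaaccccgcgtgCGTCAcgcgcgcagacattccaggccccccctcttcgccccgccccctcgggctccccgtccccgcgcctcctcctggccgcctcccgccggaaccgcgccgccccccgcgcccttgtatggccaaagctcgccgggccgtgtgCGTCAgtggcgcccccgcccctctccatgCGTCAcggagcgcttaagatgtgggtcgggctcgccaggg
Nr4a3, chr4:48045055-48045304, plus strand: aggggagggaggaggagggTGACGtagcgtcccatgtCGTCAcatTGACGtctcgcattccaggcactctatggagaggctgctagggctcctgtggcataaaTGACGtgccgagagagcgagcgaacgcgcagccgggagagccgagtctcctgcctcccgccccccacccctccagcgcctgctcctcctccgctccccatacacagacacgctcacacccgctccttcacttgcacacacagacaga
Egr2, chr10:67537619-67537868, plus strand, the third of 5 windows: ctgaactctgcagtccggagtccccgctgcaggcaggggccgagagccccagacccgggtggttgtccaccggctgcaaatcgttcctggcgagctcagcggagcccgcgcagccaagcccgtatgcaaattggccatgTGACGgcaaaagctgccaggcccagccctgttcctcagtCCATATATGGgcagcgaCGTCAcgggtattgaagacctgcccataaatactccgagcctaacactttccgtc
Tnfrsf9, chr4:150927749-150927998, plus strand, the second of 2 windows: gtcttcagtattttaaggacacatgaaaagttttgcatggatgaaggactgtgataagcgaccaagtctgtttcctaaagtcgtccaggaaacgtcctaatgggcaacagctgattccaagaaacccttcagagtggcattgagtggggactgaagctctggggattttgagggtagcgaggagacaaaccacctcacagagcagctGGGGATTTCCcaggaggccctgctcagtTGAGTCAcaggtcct

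The Nr4a1 and Nr4a3 windows each held TGACG 4 times, counting both strands. Of the 32851 windows in the table, 17.8% held it at least once, and 45 windows (0.137%) at least 4 times. The Egr2 window held TGACG 2 times and 1 CArG box, a pairing present in 0.17% of windows. The shown Tnfrsf9 window held 1 TGANTCA and 1 κB motif, which 0.128% of windows share, and the first Tnfrsf9 window held neither. GGAAA, the core bound by NFAT, was in the shown windows of Egr2 (1 time) and Tnfrsf9 (3 times), and also in 55.6% of all windows. The EGR motif GCGNGGGCG occurred 1 time in the Nr4a1 window, against 4.7% of all windows holding it. TGACGTCA, which contains TGACG, the NR4A motif AAAGGTCA and the ETS motif CCGGAAGT were also searched on both strands and were not in any of the 11 windows of these genes. These counts and pairings were read from windows shown for their motifs, so the shares do not measure how unusual these promoters are. A match is a description of the letters and no evidence of binding.

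Without acetate, 4 of the 9 genes were lower in KO than in WT cells (Nr4a1, Nr4a3, Tnfrsf9 and Tnfrsf4), by edgeR's quasi-likelihood test at an adjusted p of 0.05 over all genes tested. In the same comparison 18.6% of all genes were called lower, 18% higher and 36.6% in either direction. Acetate raised 5 of the 9 in KO cells (those 4 and Cd44), where 22.1% of all genes were called higher, 21.6% lower and 43.7% in either direction. It raised 4 in WT cells (Nr4a1, Tnfrsf9, Tnfrsf4 and Cd69), where 7.89% of all genes were called higher, 7.55% lower and 15.4% either way. Without the 4 libraries in which a single gene took over 3% of counts, 3 genes were called in untreated KO against WT cells, 5 for acetate in KO cells and 1, Tnfrsf9, for acetate in WT cells. Of all genes, 3361, 5146 and 1765 were called in that run in the same order, against 5481, 6550 and 2315 with all 16 libraries. With acetate in both, none of the 9 differed between KO and WT by edgeR. There 3 had an unadjusted p under 0.05 in edgeR, as did 2762 of all 14985 genes tested. DESeq2 called 2 of the 9, and 831 of all genes. By adjusted p, edgeR called 1% of all genes there, 0.487% higher and 0.514% lower. The median log2 fold change of the 9 genes was -0.38 between KO and WT untreated cells, 0.41 for acetate in KO cells and 0.22 for acetate in WT cells, against 0.01, -0.01 and 0.00 over all genes tested. The comparisons share groups, so these counts do not stand independently of each other. The genes, like the lists further down, were chosen with earlier results of these data known. Because of this, the shares of all genes do not measure how unusual the counts are.

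**Figure D1:**
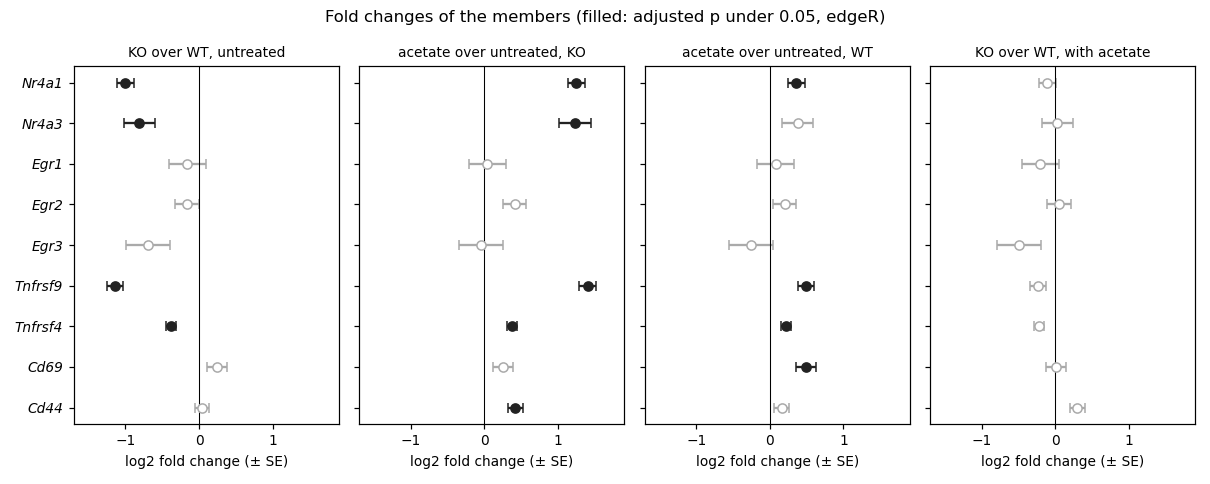
Log2 fold change of each gene in 4 pairwise comparisons, 1 panel each, with bars of 1 standard error on each side; filled points passed an adjusted p of 0.05 in edgeR. Nr4a1, Nr4a3, Tnfrsf9 and Tnfrsf4 lie below 0 in untreated KO against WT cells and above 0 for acetate in KO cells.

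Nr4a1 encodes the orphan nuclear receptor Nur77. Its level was 425, 469, 425 and 412 CPM in the 4 KO acetate libraries, against 155, 194, 173 and 205 CPM in the KO untreated ones. In WT cells it was 475, 499, 432 and 460.2 CPM with acetate, against 263, 423, 399 and 373 CPM without. The untreated KO libraries were the lowest 4 of the 16, and the KO and WT ranges overlapped once acetate was present. Means were 433 ± 24.9, 182 ± 22.2, 466 ± 28.0 and 365 ± 70.5 CPM (SD, n = 4 each) in KO acetate, KO untreated, WT acetate and WT untreated cells. Untreated KO cells were 0.50 times the WT level, a log2 fold change of -1.0 (SE 0.116, adjusted p = 5.3e-06). Acetate raised Nr4a1 2.38-fold in KO cells, with a log2 fold change of 1.25 (SE 0.117, adjusted p = 1.91e-07), and its libraries lay apart from the untreated ones. In WT cells the acetate effect was 0.36 (SE 0.115, adjusted p = 0.0442), also with no overlap. That call in WT cells was lost without KO acetate 1, 3 or 4, KO untreated 2 or 3, WT acetate 1, 2 or 4, or WT untreated 1 or 4 (0.23 to 0.37, adjusted p = 0.0505 to 0.114). The smallest effect, 0.23, was that without WT untreated 1, whose 263 CPM lies below the other 3. The acetate effect was larger in KO than in WT cells by 0.90 (SE 0.163, adjusted p = 0.00207) on the log2 scale, an interaction that passed the test.

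Nr4a3, which encodes the family member NOR1, followed the same order at the low end. It had 280.4, 253, 223 and 152 CPM in KO acetate libraries, against 93.5, 97.9, 96.2 and 100.3 CPM in KO untreated ones. WT libraries had 297, 251, 155 and 186 CPM with acetate, against 131, 207, 173 and 170.3 CPM without it. The untreated KO libraries were the lowest 4 and lay close together, while both acetate groups were widely spread. Untreated KO cells differed from WT cells by -0.81 (SE 0.213, adjusted p = 0.00919), and acetate raised the gene by 1.23 (SE 0.215, adjusted p = 0.000401) in KO cells, a 2.34-fold difference. The first of these lost its call without the 4 libraries in which a single gene took over 3% of counts (-0.91, adjusted p = 0.0655). In WT cells the acetate difference was 0.38 (SE 0.211, adjusted p = 0.261), with overlapping libraries. The interaction of 0.84 (SE 0.299, adjusted p = 0.086) did not pass in edgeR. It did in DESeq2 (adjusted p = 0.0323), and in edgeR without KO acetate 4 (1.01, adjusted p = 0.0249) or without WT acetate 1 (1.00, adjusted p = 0.0384).

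The third NR4A gene, Nr4a2, is not among the 9 but belongs to the list of other TCR-induced genes. It averaged 49.4 ± 8.38 CPM in KO acetate, 11.4 ± 1.19 in KO untreated, 47.1 ± 15.9 in WT acetate and 36.4 ± 7.99 in WT untreated cells (SD, n = 4 each). Untreated KO cells differed from WT cells by -1.67 (SE 0.24, adjusted p = 0.000134), and acetate raised it in KO cells by 2.11 (SE 0.242, adjusted p = 1.04e-05). All 3 NR4A genes were thus lowest in untreated KO cells. The NR4A genes resemble each other in sequence, as do the EGR genes, so reads may be shared between family members in the estimates.

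**Figure D2:**
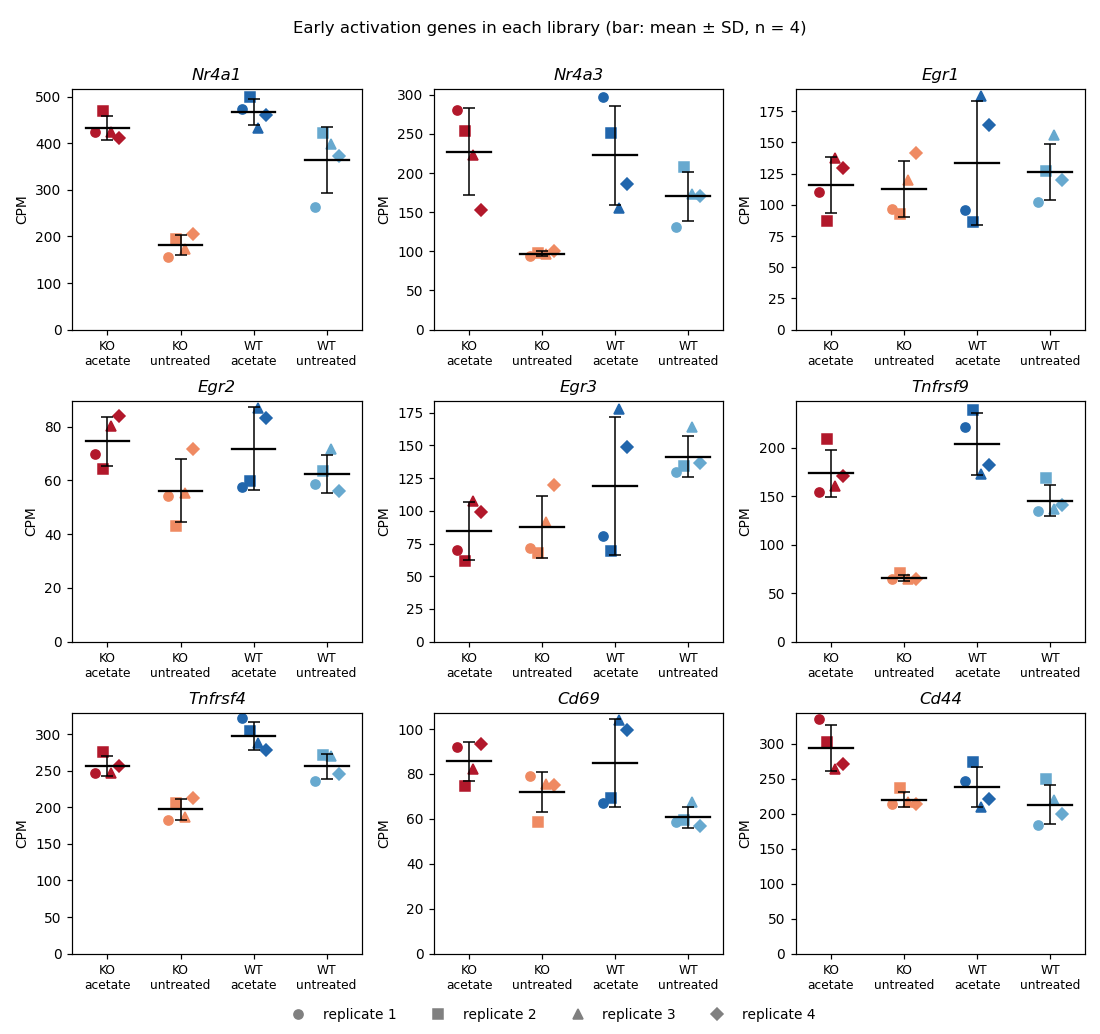
CPM of each of the 9 genes in the 16 libraries, 1 panel per gene with its own axis from 0; points are libraries, and the bar and whiskers are the group mean and SD (n = 4). The untreated KO points of Nr4a1, Nr4a3, Tnfrsf9 and Tnfrsf4 lie below all other points, and the groups overlap throughout for Egr1.

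Tnfrsf9 encodes CD137, a TNF receptor family member that appears on T cells after activation and delivers costimulation. It showed the widest range of group means among the 9 genes, 3.10-fold between the highest and the lowest. Levels were 154, 209, 161 and 171 CPM in KO acetate libraries, against 64.5, 70.5, 64.5 and 64.3 CPM in KO untreated ones. WT libraries held 222, 239, 173 and 182 CPM with acetate, against 135, 169, 137 and 141 CPM without. The untreated KO libraries stood below all others, at most 70.5 CPM against at least 135 CPM elsewhere. Group means were 174 ± 24.4, 65.9 ± 3.04, 204 ± 31.6 and 146 ± 15.8 CPM (SD, n = 4 each) in KO acetate, KO untreated, WT acetate and WT untreated cells. Untreated KO cells differed from WT cells by -1.14 (SE 0.109, adjusted p = 7.92e-07). Acetate raised the gene 2.64-fold in KO cells, 1.40 (SE 0.11, adjusted p = 3.24e-08) on the log2 scale, and 1.40-fold in WT cells, 0.49 (SE 0.107, adjusted p = 0.00508). The libraries did not overlap in any of these 3 comparisons, and the 3 calls were kept in every alternative run. The interaction was 0.91 (SE 0.152, adjusted p = 0.00112).

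Tnfrsf4 encodes OX40, a costimulatory receptor of activated CD4 T cells. Its differences were smaller than those of Tnfrsf9 but the libraries were tight. Levels were 246, 276, 247 and 257 CPM in KO acetate, against 182, 206, 187 and 213 CPM in KO untreated libraries. In WT cells they were 322, 304, 288 and 278 CPM with acetate, against 236, 271, 270.0 and 246 CPM without. Untreated KO libraries were again the lowest 4. Untreated KO cells were -0.38 (SE 0.0688, adjusted p = 0.000349) from WT cells, and acetate raised Tnfrsf4 by 0.38 (SE 0.0688, adjusted p = 0.000197) in KO cells and by 0.22 (SE 0.0686, adjusted p = 0.0368) in WT cells. The WT call was lost without WT untreated 1, WT untreated 4, WT acetate 1 or WT acetate 2 (0.18 to 0.21, adjusted p = 0.0842 to 0.128). With acetate, all 4 KO libraries lay below all 4 WT libraries, a difference of -0.22 (SE 0.0686, adjusted p = 0.108) that missed the threshold in edgeR and passed it in DESeq2 (-0.22, adjusted p = 0.0319). KO cells with acetate and untreated WT cells were close, at 256 ± 13.6 and 256 ± 17.7 CPM (SD, n = 4 each), with a 95% interval of -0.13 to 0.14 for the log2 difference (1.96 SE on each side). The interaction of 0.16 (SE 0.0971, adjusted p = 0.312) did not pass, so the acetate effect on Tnfrsf4 was not shown to differ between genotypes.

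Both CD8 markers were called lower in untreated KO than WT cells (Cd8a -1.0, Cd8b1 -0.55) and higher with acetate in KO cells (1.86 and 1.05), at summed levels of at most 18.2 CPM. Of the 6 CD4 T cell markers, 5 were called lower in untreated KO than WT cells, against 18.6% of all genes. With acetate in KO cells 1 of the 6 was called higher and 2 lower, against 22.1% and 21.6% of all genes. Of the 6 Th17 markers, 5 were called higher with acetate in KO cells, against the same 22.1% of all genes. With acetate in WT cells Cd8b1 was called higher (0.52), 2 CD4 T cell markers lower and 2 Th17 markers higher. Of all genes, 7.89% rose and 7.55% fell there by the same test. In KO acetate against untreated WT cells both CD8 markers were called higher (0.86 for Cd8a and 0.51 for Cd8b1), as were 4 Th17 markers and the myeloid marker Itgam (0.81), and 5 of the 6 CD4 T cell markers were called lower. In that comparison 12.9% of all genes rose and 13.5% fell by the same test. The 2 testable dendritic cell markers, Flt3 and Zbtb46, were called higher in untreated KO than WT cells (2.13 and 1.10), against 18% of all genes. The part of these cells in the results was not tested.

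The EGR factors had 0 called differences in edgeR among 18 tests (3 genes in 6 comparisons). In 3 of these the unadjusted p was under 0.05, and DESeq2 called 2: Egr2 for acetate in KO cells and Egr3 in KO acetate against untreated WT cells. Fitting only the groups compared, edgeR called 3: those 2 and Egr3 between untreated KO and WT cells. A fit with the replicate number as a block called the same 3. Egr1, an immediate early factor downstream of MAP kinases, had 110.2, 86.9, 137 and 129.9 CPM in KO acetate libraries, against 96.5, 93.1, 120.1 and 141 CPM in KO untreated ones. In WT cells it had 96.1, 86.5, 188 and 164 CPM with acetate, against 102, 127, 156 and 119.6 CPM without. All 4 groups overlapped, and the largest of its pairwise differences was -0.20 on the log2 scale (adjusted p = 0.713), between KO and WT cells with acetate. The 95% interval of the KO against WT difference without acetate was -0.65 to 0.33, so a change of the size seen for Nr4a1 lies outside it.

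Egr2 had 69.9, 64.4, 80.1 and 83.9 CPM in KO acetate, against 54.2, 43.2, 55.4 and 71.7 CPM in KO untreated libraries. WT libraries had 57.4, 59.9, 86.9 and 83.3 CPM with acetate and 58.6, 63.4, 71.8 and 56.0 CPM without. The untreated KO group had the lowest mean, but its highest library overlapped the acetate-treated ones. The acetate difference in KO cells was 0.41 (SE 0.16, adjusted p = 0.0504), just short of the threshold. It passed without KO acetate 2, KO untreated 4 or WT acetate 1, 2 or 3, with the smallest p without KO untreated 4, the highest of its group (0.54, adjusted p = 0.0138). DESeq2 (adjusted p = 0.0197), edgeR on only the groups compared (adjusted p = 0.0397) and edgeR with no scaling (0.52, adjusted p = 0.0235) also called it. It was smallest without the 4 libraries in which a single gene took over 3% of counts (0.29, adjusted p = 0.303), and 0.29 (adjusted p = 0.165) without KO untreated 2.

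Egr3 was the 1 member whose acetate difference was below 0 in both genotypes, though 0.06 in KO cells with no scaling between libraries, and in neither past the threshold. It had 70.3, 62.0, 107 and 99.1 CPM in KO acetate, against 71.3, 67.8, 91.3 and 119 CPM in KO untreated libraries. WT libraries had 80.6, 69.1, 178 and 149 CPM with acetate, against 129.6, 134, 164 and 137 CPM without. All KO libraries, with or without acetate, lay below the lowest untreated WT library. The untreated KO to WT difference was -0.69 (SE 0.301, adjusted p = 0.0912) and that of KO acetate against untreated WT -0.74 (SE 0.301, adjusted p = 0.0892), neither past the threshold. Both passed when only the groups compared were fitted (-0.69, adjusted p = 0.021, and -0.75, adjusted p = 0.0208). They also passed with the replicate number as a block in the fit (-0.73, adjusted p = 0.00628, and -0.79, adjusted p = 0.00624). The acetate differences were -0.05 in KO cells (95% interval -0.64 to 0.54) and -0.25 in WT cells (-0.83 to 0.34).

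Cd69, an early surface protein that holds activated T cells in tissue by opposing the sphingosine-1-phosphate receptor S1PR1, was not called lower in KO cells. Its levels were 91.8, 74.8, 82.4 and 93.3 CPM in KO acetate, against 79.0, 58.8, 75.5 and 74.9 CPM in KO untreated libraries. In WT cells they were 67.2, 69.2, 104 and 99.6 CPM with acetate, against 58.8, 59.4, 67.6 and 56.9 CPM without. No untreated WT library was above 67.6 CPM. The KO to WT difference without acetate was 0.25 (SE 0.136, adjusted p = 0.17), with a 95% interval of -0.02 to 0.51. With only the groups compared in the fit it was called higher in KO cells (0.25, adjusted p = 0.0398), opposite to the members called lower there. Acetate raised Cd69 in WT cells by 0.49 (SE 0.136, adjusted p = 0.0239), a 1.40-fold difference whose libraries overlapped. That call was lost without WT untreated 1, 2 or 4 or WT acetate 3 or 4 (0.37 to 0.48, adjusted p = 0.0599 to 0.0753). In KO cells the acetate difference was 0.25 (SE 0.136, adjusted p = 0.154), called only with no scaling between libraries (0.36, adjusted p = 0.0442), and the interaction of -0.24 (adjusted p = 0.471) did not pass. KO cells with acetate lay above untreated WT cells in every library, by 0.50 (SE 0.136, adjusted p = 0.0138).

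Cd44, the hyaluronan receptor that marks activated and memory T cells, was higher with acetate in KO cells but not called lower in untreated KO cells. Levels were 336, 302, 264 and 272 CPM in KO acetate, against 214, 236, 217 and 214 CPM in KO untreated libraries. In WT cells they were 248, 275, 209.5 and 221 CPM with acetate, against 184, 250.1, 219 and 200.3 CPM without. All 4 KO acetate libraries were above all untreated libraries of either genotype. Untreated KO and WT cells differed by 0.04 (95% interval -0.15 to 0.24). Acetate raised Cd44 1.33-fold in KO cells, 0.42 (SE 0.0985, adjusted p = 0.00214), and differed by 0.16 (SE 0.0984, adjusted p = 0.315) in WT cells. The interaction of 0.26 (adjusted p = 0.254) did not pass, so the effect was not shown to differ between genotypes. KO cells with acetate were higher than untreated WT cells by 0.46 (SE 0.0986, adjusted p = 0.00237). With acetate in both, KO exceeded WT by 0.30 (SE 0.0984, adjusted p = 0.116), which DESeq2 called (0.30, adjusted p = 0.0499).

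KO cells with acetate were also set against untreated WT cells. Of the 9 genes, 2 were called there, Cd69 and Cd44, both higher, and edgeR called 12.9% of all genes higher, 13.5% lower and 26.4% either way. Nr4a1 differed there by 0.25 (95% interval 0.02 to 0.47), Nr4a3 by 0.42 (0.00 to 0.83) and Tnfrsf9 by 0.26 (0.05 to 0.47). The interaction between genotype and acetate was called for 2 of the 9, Nr4a1 and Tnfrsf9, both with a larger acetate effect in KO cells, where 6.37% of all genes were called in that direction, 5.54% in the other and 11.9% either way.

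By group mean, the lowest group was untreated KO for Nr4a1, Nr4a3, Egr1, Egr2, Tnfrsf9 and Tnfrsf4. For Nr4a1, Nr4a3, Tnfrsf9 and Tnfrsf4 it was separated from the next group, untreated WT, with no overlap of libraries. Over all genes tested, 34.1% had their lowest mean in untreated KO cells, and in 9.88% all 4 untreated KO libraries lay below the other 12, as for these 4 genes. The order above it was untreated WT, KO acetate and WT acetate for Nr4a1, Tnfrsf9 and Tnfrsf4, and among these 3 groups the only neighbours whose libraries did not overlap were KO acetate and WT acetate for Tnfrsf4. For Nr4a3 the order was untreated KO, untreated WT, WT acetate and KO acetate. Egr1 ran from untreated KO through KO acetate and untreated WT to WT acetate, and Egr2 from untreated KO through untreated WT and WT acetate to KO acetate. Egr3 ran from KO acetate through untreated KO and WT acetate to untreated WT. Cd69 and Cd44 shared the order untreated WT, untreated KO, WT acetate and KO acetate. All neighbours overlapped for the 3 EGR genes, Cd69 and Cd44, and the highest mean was 1.19 (Egr1) to 1.67 (Egr3) times the lowest.

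Within groups, the EGR genes split by replicate number, a pattern seen after their values were known and given with no test. Egr3 was higher in both libraries numbered 3 and 4 than in both numbered 1 and 2 in all 4 groups, and the ratio of the means was 1.56 in KO acetate, 1.51 in KO untreated, 2.18 in WT acetate and 1.14 in WT untreated cells. Egr1 and Egr2 did the same in 3 groups and were mixed in untreated WT cells. In WT acetate cells all 9 genes split this way: Egr1, Egr2, Egr3 and Cd69 were higher in libraries 3 and 4, with a Cd69 ratio of 1.49, and the other 5 were lower, with ratios of 0.62 for Nr4a3, 0.77 for Tnfrsf9, 0.82 for Cd44, 0.90 for Tnfrsf4 and 0.92 for Nr4a1. In that group 57.7% of all genes tested split in either direction, against 33.7% in KO acetate, 28.6% in KO untreated and 33.4% in WT untreated cells. Libraries 3 and 4 were both above 1 and 2 in 26.6% of all genes there, and in 15.8%, 14.1% and 16.4% in the other groups in that order. Of the 9 genes, 3 were mixed in KO acetate, 5 in KO untreated and 8 in WT untreated cells. The labels do not say what the replicate numbers stand for.

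**Figure D3:**
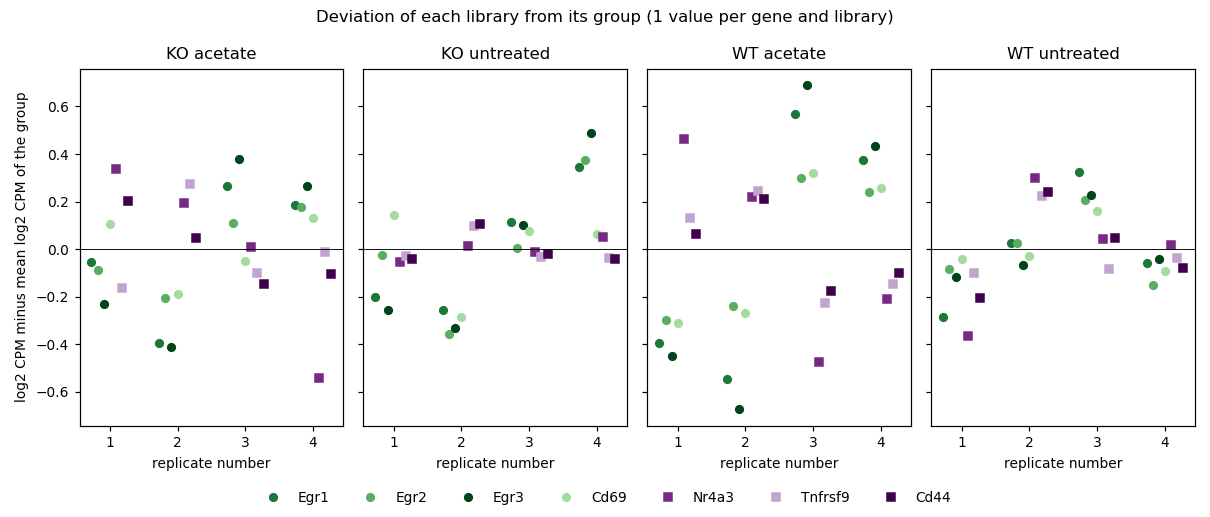
Deviation of each library from its group's mean log2 CPM, by replicate number, for 7 of the genes; 1 panel per group, green circles for the EGR genes and Cd69, purple squares for Nr4a3, Tnfrsf9 and Cd44. In WT acetate cells the circles are below 0 in libraries 1 and 2 and above 0 in libraries 3 and 4, and the squares the other way round.

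Genes outside the set whose log2 CPM ran most like each member over the 16 libraries were listed with Pearson's r. They came from 9118 named genes averaging 5 CPM or more. Predicted, mitochondrially encoded and sex-linked genes and immunoglobulin or T cell receptor segments were left out. The 16 points share 4 groups, depth and any common library effect, so r is a description. Nr4a1 ran closest to Serpinb6a (0.977), Plxnb2 (0.977) and Hopx (0.976), and Nr4a3 to Galc (0.982), Sestd1 (0.972) and Cblb (0.971), an E3 ligase that dampens TCR signalling. Tnfrsf9 ran closest to Ly6a (0.984), Card19 (0.982) and Tirap (0.981), and Tnfrsf4 to Ly6e (0.971), Card19 (0.969) and Cisd3 (0.964). Egr1 ran closest to Nab2 (0.912), which encodes a corepressor that binds EGR proteins, then Msantd2 (0.894) and Ddx11 (0.832). Msantd2 (0.945) also led for Egr3, followed by Ppm1h (0.940) and Cltb (0.910). For Egr2 they were Cd274 (0.902), which encodes PD-L1, Trmt6 (0.899) and Kdm6b (0.898). For Cd69 they were Pdcd1lg2 (0.90), which encodes PD-L2, Lta (0.896) and Rpl7l1 (0.886), and for Cd44 Nfkbiz (0.934), Plek (0.930) and Rora (0.928).

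Other genes induced through the TCR did not share a single direction. Of 24 on the list, 5 were called higher and 7 lower in untreated KO than WT cells, with a median log2 fold change of -0.09, against 18% and 18.6% of all genes and a median of 0.01. Il2, the T cell growth factor (0.98, adjusted p = 1.6e-05), and Myc, the growth regulator (0.58, adjusted p = 4.03e-05), were higher in KO cells. Fosl2, an AP-1 subunit (-1.67, adjusted p = 7.04e-05), was lower. With acetate, 8 rose and 6 fell in KO cells (22.1% and 21.6% of all genes), where Rel, an NF-κB subunit, changed by 1.35 (adjusted p = 2.54e-09) and Ier3 by 1.39 (adjusted p = 7.01e-07). In WT cells 6 rose and 3 fell (7.89% and 7.55% of all genes), led by Il2 at 1.08 (adjusted p = 2.72e-05). The interaction was called above 0 for 4 genes of the list and below 0 for 2 (6.37% and 5.54% of all genes), the first including Nr4a2 at 1.74 (adjusted p = 0.00448) and Fosl2 at 1.80 (adjusted p = 0.00252).

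TCR signalling components went mostly one way between the genotypes without acetate. Of 24, 13 were called lower and 1 higher in untreated KO than WT cells, with a median of -0.20, against 18.6% and 18% of all genes and a median of 0.01. Those lower included Cd3g, a chain of the receptor complex (-0.45, adjusted p = 4.31e-05), Plcg1, the phospholipase that starts the calcium signal (-0.34, adjusted p = 3.77e-05), and Ptprc, the phosphatase CD45 (-0.36, adjusted p = 0.00015). Acetate gave 7 higher and 5 lower in KO cells, where 22.1% and 21.6% of all genes were called, and 5 lower in WT cells, where 7.55% were. KO cells with acetate had 7 of the 24 called below untreated WT cells, where 13.5% of all genes were, and with acetate in both genotypes Cd3g and Cd3d were lower in KO than in WT cells (-0.43, adjusted p = 0.00488, and -0.30, adjusted p = 0.0308).

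Feedback inhibitors of T cell activation included genes that went in the directions of Nr4a1. Of 20, 7 were called lower and 2 higher in untreated KO than WT cells, and 8 were called higher and 1 lower with acetate in KO cells. The shares of all genes were 18.6% and 18% in the first comparison and 22.1% and 21.6% in the second. Ctla4, which outcompetes CD28 for its ligands, averaged 569 ± 39.5 CPM in KO acetate, 162 ± 22.4 in KO untreated, 469.6 ± 119 in WT acetate and 355 ± 56.8 in WT untreated cells (SD, n = 4 each). Its log2 differences were -1.13 (adjusted p = 8.18e-05) for untreated KO against WT and 1.81 (adjusted p = 4.89e-07) for acetate in KO cells. Dusp5, a phosphatase of ERK, gave -0.84 (adjusted p = 8.68e-05) and 1.23 (adjusted p = 9.44e-07) in the same comparisons. The interaction was called for 5 of the 20, all above 0 (6.37% of all genes), including Ctla4 (1.41, adjusted p = 0.00135), Dusp5 (0.68, adjusted p = 0.0199) and Cblb (1.14, adjusted p = 0.0306). Dgka, a kinase that removes diacylglycerol, was lower in untreated KO than WT cells (-0.53, adjusted p = 9.18e-07) and lower also with acetate in both (-0.28, adjusted p = 0.0214).

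The other TNF receptor family and NF-κB genes, a list of receptors, ligands and signalling proteins, moved in both directions. Of 23, 10 were called higher and 4 lower in untreated KO than WT cells, against 18% and 18.6% of all genes. Nfkbia, the inhibitor of NF-κB (0.84, adjusted p = 1.57e-07), Birc3, an inhibitor of apoptosis (0.62, adjusted p = 7.11e-07), and Tnfsf8, the ligand of CD30 (0.84, adjusted p = 1.11e-06), were higher. With acetate in KO cells 7 rose and 9 fell (22.1% and 21.6% of all genes), and Birc3 (-0.81, adjusted p = 1.15e-08) and Tnfsf8 (-1.08, adjusted p = 2.23e-08) were among those that fell. Among its receptors, Tnfrsf1a averaged 29.6 CPM in untreated WT, 20.7 in untreated KO and 28.4 in KO acetate cells. Tnfrsf18 averaged 164, 104 and 144.5 CPM in the same order. Acetate raised both in KO cells (0.46, adjusted p = 1.68e-05, and 0.47, adjusted p = 0.0181). Tnfrsf8 and Tnfrsf25 fell there (-1.32, adjusted p = 0.000273, and -0.57, adjusted p = 9.31e-07), and Tnfrsf1b and Cd27 were not called. The list thus held genes that ran opposite to Tnfrsf9 and Tnfrsf4 in these comparisons, and genes that ran the same way.

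**Figure D4:**
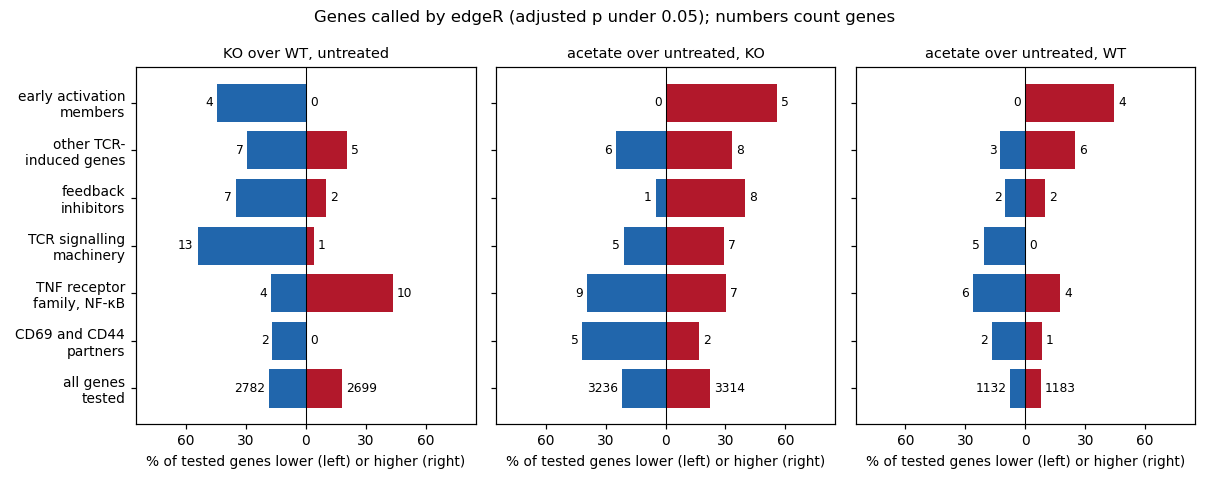
Share of each list's tested genes, in percent, called higher (red, right of 0) and lower (blue, left of 0) by edgeR at an adjusted p of 0.05 in 3 comparisons; the numbers count genes, and the bottom row holds all genes tested. The 9 followed genes are called in 1 direction per comparison, and the TNF receptor family and NF-κB list in both.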

How the data were processed

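RNA for 16 libraries of Th17 cells was prepared with a stranded, poly(A)-selecting mRNA kit, per the labels' protocols. The authors deposited whole-number, estimated counts per gene, with Salmon, DESeq2 and DESeq named in the submitters' processing notes. The sources used here do not state versions, genome build or annotation. The counts were used as deposited, and 15221 of 15571 identifiers matched a gene name. All 15571 genes have at least 10 counts in at least 3 libraries, and filterByExpr kept 14985. One model with the 4 groups was fitted in edgeR 4.0.16 (R 4.3.3, limma 3.58.1) with TMM scaling and quasi-likelihood tests, adjusted by Benjamini-Hochberg over all genes tested, and "called" means an adjusted p under 0.05. SEs come from the same fits. The interaction is the acetate effect in KO minus that in WT cells. CPM values use TMM-scaled totals, and log2 CPM a prior count of 2. Depth was at least 24571177 counts per library and the common biological coefficient of variation 0.144. No pair of libraries within a group was a duplicate. Levels are not per length, so genes were not ranked against each other. Up to 3 genes per list and comparison were named by smallest p. Nr4a2, Tnfsf4, Tnfsf9 and the receptors of the TNF receptor family list were also named in comparisons outside that rule. Alternatives were DESeq2 1.42.0, RLE and no scaling, no filter, only the groups compared, a replicate block, and libraries left out. Members and lists were chosen with earlier results of these data known.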

Additional observations from a re-analysis of the deposited data

Results flagged for a closer look

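In 36 sets of 4 libraries (9 genes in 4 groups), 2 held a library that stood apart from the other 3 by Dixon's criterion at the 95% level. Over so many sets, which share the same 16 libraries, some flags can arise by chance, and this was not tested. Both flags fell on KO untreated 2, a library in which a single gene took 3.27% of counts. Tnfrsf9 was 70.5 CPM there, against 64.3 to 64.5 CPM in the other 3, a gap of 0.966 of the group's range. Cd44 was 236 CPM there, against 214 to 217 CPM, a gap of 0.865 of the range.

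The acetate effect differed between the genotypes for Nr4a1, by 0.90 (SE 0.163, adjusted p = 0.00207), and for Tnfrsf9, by 0.91 (SE 0.152, adjusted p = 0.00112), as the effect in KO minus that in WT cells on the log2 scale by edgeR's test of the interaction. In Nr4a1 acetate added 1.25 in KO and 0.36 in WT cells, and in Tnfrsf9 1.40 and 0.49.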

How the results depend on the processing

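The calls in untreated KO against WT cells and for acetate in KO cells kept their direction in every alternative run and, except Nr4a3 without the 4 libraries in which 1 gene took over 3% of counts (high-share libraries), their side of the threshold: Nr4a1 ran from -1.13 to -0.93 and from 1.15 to 1.35, Tnfrsf9 from -1.22 to -1.07 and from 1.29 to 1.49. The interactions of Nr4a1 (0.82 to 1.02) and Tnfrsf9 (0.81 to 1.00) also kept their calls. The number of members called between untreated KO and WT cells was 3 to 6 (3361 to 5886 of all genes), and for acetate in KO cells 5 to 7 (5146 to 6851 of all genes). Of the calls for acetate in WT cells, that of Tnfrsf9 alone was kept throughout. The number of members called there was 2 when only the groups compared were fitted (2357 of all genes), 1 without the 4 high-share libraries (1765), and 1 to 4 with single libraries left out (1569 to 2370). For Nr4a1 it was also lost with no scaling (adjusted p = 0.0627).

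The number of all genes called between KO and WT with acetate (150) was the least stable: 78 with no scaling, 408 with the replicate block, 535 without the high-share libraries, 16 with only the groups compared, 831 in DESeq2, and 21 to 661 with single libraries left out. DESeq2 called 2 members there. Without the high-share libraries 3361 genes were called between untreated KO and WT cells and 1010 for the interaction. Without scaling, the median log2 difference of all genes for acetate in KO cells was 0.095, against -0.009 with TMM scaling. The calls then split into 1914 higher and 3217 lower between untreated KO and WT (2699 and 2782 with scaling), 4229 and 2085 for acetate in KO (3314 and 3236), 1196 and 558 for acetate in WT (1183 and 1132), 1911 and 1254 for KO acetate against untreated WT (1935 and 2019), 28 and 50 between genotypes with acetate (73 and 77) and 939 and 442 for the interaction (955 and 830).

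Values that changed sign were all uncalled. Tnfrsf4 in KO acetate against untreated WT was -0.002 with RLE scaling and in DESeq2, -0.004 with no filter, -0.005 with only the groups compared, -0.083 without the high-share libraries and -0.042 to 0.031 with single libraries left out. Cd44 between untreated KO and WT was -0.014 with no scaling, -0.057 without the high-share libraries and -0.021 to 0.128 with single libraries left out. Egr3 for acetate in KO was 0.060 with no scaling (-0.180 to 0.132 leaving out single libraries). The Egr1 interaction was 0.031 with no scaling and 0.018 with the block (-0.200 to 0.172). Without the high-share libraries, Egr1 was -0.016 for acetate in WT (-0.129 to 0.242 leaving out single libraries) and -0.064 in KO (-0.049 to 0.160), and Nr4a3 with acetate in both was -0.027 (-0.109 to 0.199). Leaving out single libraries also moved the difference between genotypes with acetate of Egr1 (-0.365 to 0.007), Egr2 (-0.043 to 0.158) and Cd69 (-0.090 to 0.122) across 0. These were -0.202, 0.053 and 0.010 in the main fit. The cause was not tested.

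Same-numbered libraries of different groups correlated by -0.084 to 0.229 over all genes (median 0.0485), in deviations from group means. Differently numbered ones correlated by -0.195 to 0.198 (median -0.0135). Of the 24 same-numbered pairs 9 were over 0.1, and 9 of 16 libraries correlated best with their own number. These values do not settle whether the numbers pair samples. The labels do not say, so the main fit held no replicate term. With the replicate number as a block, 4 members were called in KO acetate against untreated WT cells in place of 2: Egr3 (-0.79, adjusted p = 0.00624) and Tnfrsf9 (0.26, adjusted p = 0.0110) were added. Of all genes, 4401 were called there with the block and 3954 without it. The block also called Egr3 between untreated KO and WT (-0.73, adjusted p = 0.00628) and Egr2 for acetate in KO (0.42, adjusted p = 0.00808).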

Other observations

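Ligands and partners of the receptors were also measured. Tnfsf4, which encodes the ligand of OX40, averaged 19.4 ± 1.98 CPM in KO acetate, 55.4 ± 3.90 in KO untreated, 12.5 ± 2.32 in WT acetate and 30.9 ± 5.00 in WT untreated cells (SD, n = 4 each). It fell with acetate, with log2 differences of -1.51 (adjusted p = 5.35e-08) in KO and -1.30 (adjusted p = 4.76e-06) in WT cells, and was higher in untreated KO than WT cells by 0.84 (adjusted p = 5.05e-05), the reverse of Tnfrsf4 in each of these comparisons. Tnfsf9, which encodes the ligand of CD137 and was chosen after its values were seen, averaged 17.7 ± 2.45, 18.9 ± 2.39, 15.8 ± 1.19 and 11.9 ± 1.49 CPM in the same order. It was higher in untreated KO than WT cells by 0.67 (adjusted p = 0.0002), differed with acetate by -0.10 (adjusted p = 0.509) in KO cells and rose by 0.41 (adjusted p = 0.022) in WT cells. Tnfsf11, which encodes RANK ligand, was higher with acetate in WT cells by 0.71 (adjusted p = 8.6e-05).

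Of 12 partners of CD69 and CD44, 2 were called lower in untreated KO than WT cells, a share near the 18.6% of all genes: Nf2, which encodes merlin, a protein that links CD44 signals to growth control (-0.47, adjusted p = 1.65e-06), and Hmmr, another hyaluronan receptor (-0.28, adjusted p = 0.00294). With acetate in KO cells 2 were called higher, Nf2 among them (0.46, adjusted p = 8.69e-07), and 5 lower, including Msn, which encodes moesin (-0.29, adjusted p = 0.000491), where 22.1% and 21.6% of all genes were called.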
